A study of Mus musculus with 6 samples.

Results

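The thioredoxin and peroxiredoxin genes described here are 10 genes picked by symbol from a deposited expression table of 22564 mouse genes: Txn1, Txn2, Txnrd1, Txnrd2, Txnip, Srxn1, Prdx1, Prdx3, Prdx5 and Prdx6. They were named by symbol and not by a threshold on measured values, but with earlier results of these data known. RNA came from EOMA cells, a mouse endothelioma line grown in normal oxygen, treated for 24 h. In 3 libraries the cells had received DMSO, the solvent, and in the other 3 they had received DHTS at 2 µM, a plant tanshinone also called 15,16-dihydrotanshinone I. The labels name no genotype change. Whether libraries of 1 group were grown as separate cultures is not stated, and the p-values therefore describe library-to-library spread that may be technical. All 10 genes reached a mean of 1 FPKM (fragments scaled to transcript length and to library size) over the 6 libraries and were among the 11416 genes tested.

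Thioredoxins are small proteins that pass electrons to oxidised cysteines of other proteins. A thioredoxin reductase recharges them from NADPH, and peroxiredoxins use them to break down hydrogen peroxide. Separate sets of these proteins work in the cytosol and in mitochondria, and several of the cytosolic genes are known targets of NRF2, the transcription factor of the antioxidant response.

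DHTS-treated cells had 5 of the 10 genes higher and 3 lower than DMSO cells. The reductase gene Txnrd1 rose 2.07-fold and the sulfiredoxin gene Srxn1 1.76-fold, while Prdx6 rose 1.31-fold, Prdx1 1.25-fold and Txn1 1.07-fold. Prdx3, Prdx5 and Txnip each fell to between 0.833 and 0.847 of their DMSO level. Txn2 and Txnrd2, the mitochondrial thioredoxin and its reductase, did not pass the test. Genes were compared with limma on log2(FPKM + 1), at an adjusted p under 0.05, so each fold is on that scale. Across all genes tested 50.1% were called, 28.2% higher and 21.9% lower, and the 8 calls among 10 genes are to be read against that background. Under quantile normalization 42.8% of all calls were higher, against 56.3% in the fit as reported, and the 10 genes still gave 5 higher and 3 lower calls. In 9 of 14 alternatives, median-ratio scaling, the replicate block and 5 of the 6 left-out libraries among them, Txn1 was not called and 4 genes were higher. FPKM ranges of the groups did not overlap in 8 of the 10 genes, 5 above and 3 below, against 59.8% of all tested genes (33.0% above and 26.8% below). The median log2 change was 0.09 over the 10 genes and 0.03 over all genes, and the median size of a change was 0.26 and 0.25. Without DMSO replicate 1 the median of the 10 was 0.15 and that of all genes 0.03, and median-ratio scaling gave 0.05 and −0.01.

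**Figure D1:**
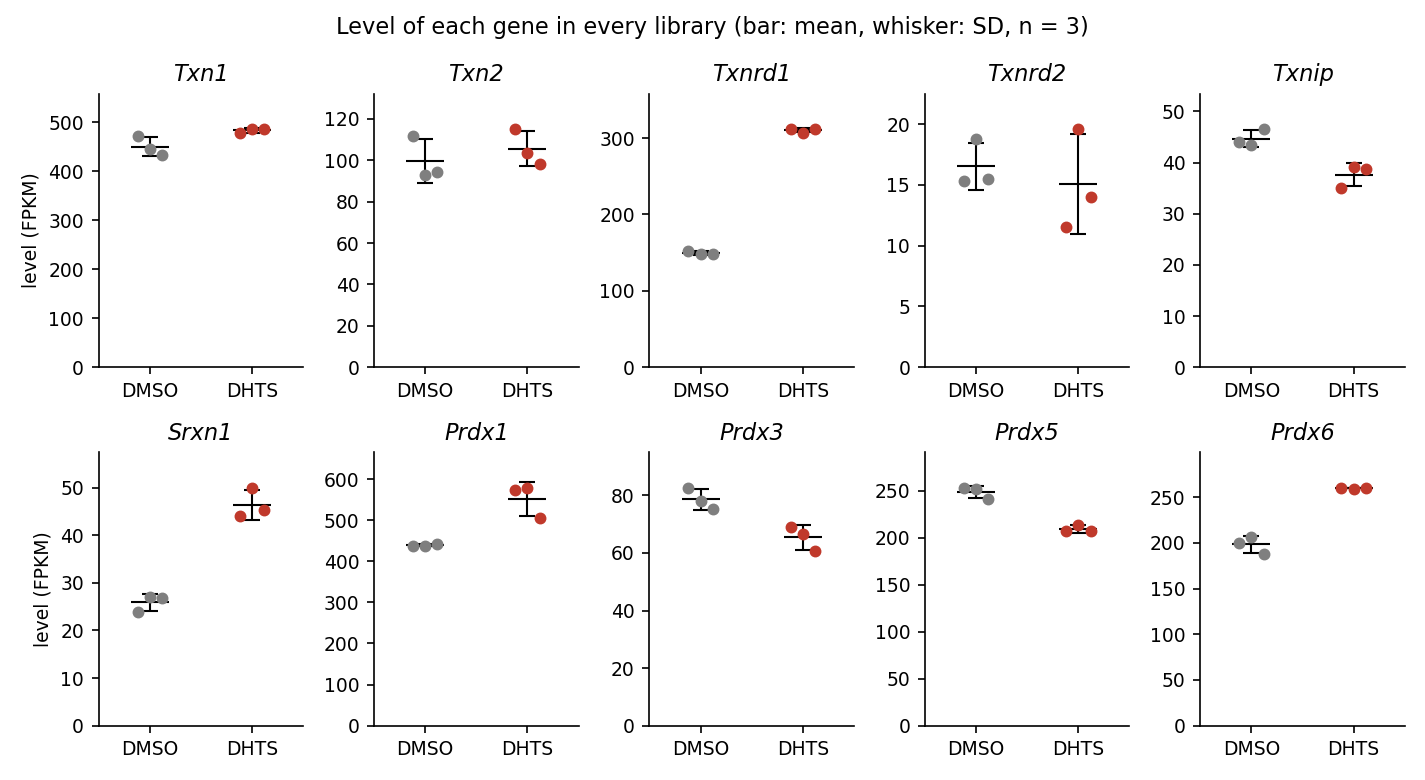
Level of each gene in FPKM in the 3 DMSO libraries (grey) and the 3 DHTS libraries (red), with each axis starting at 0, a bar for the mean and whiskers for the SD. The groups do not overlap in 8 of the 10 genes, and they overlap in Txn2 and Txnrd2.

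**Figure D2:**
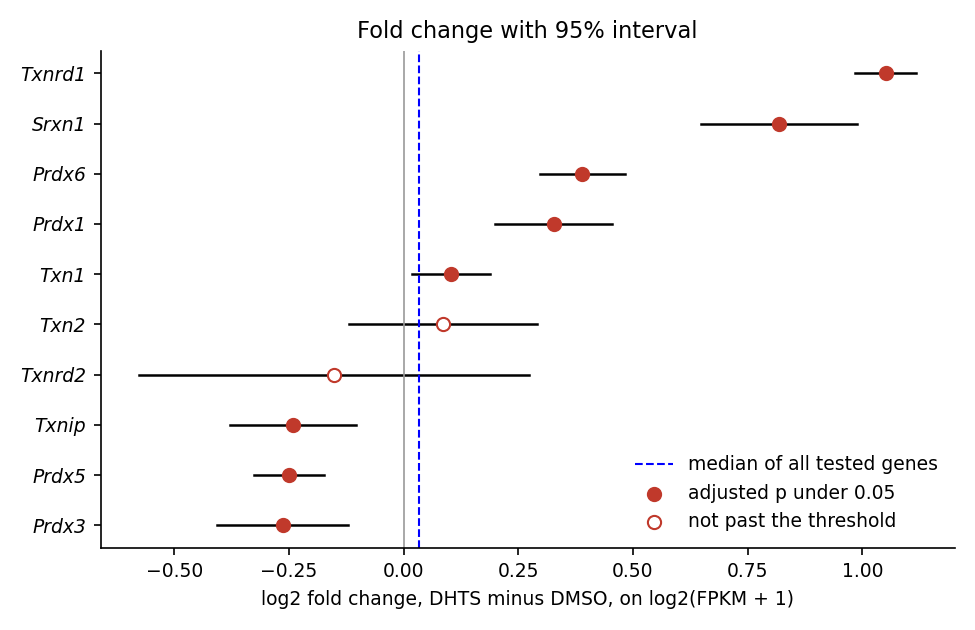
Log2 fold change of each gene (DHTS minus DMSO, on log2(FPKM + 1)) with its 95% interval from limma, where filled points passed the threshold and the dashed line is the median of all 11416 tested genes. Txnrd1 lies at 1.05 and Srxn1 at 0.82, and the intervals of Txn2 and Txnrd2 span 0.

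The libraries held 9343157 to 12255245 estimated fragments. Libraries correlated across genes at r = 0.986 to 0.989 within a group and at 0.929 to 0.932 between groups, where genes are not independent replicates. The cell label was checked against marker genes, and most of the endothelial list did not bear it out. Only Esam, Eng and Egfl7, 3 of the 15 endothelial markers, had a mean of at least 1 FPKM. In the DMSO libraries 10 of the 15 stood at 0 throughout, among them Cdh5, Kdr, Tie1 and Erg, and Tie1, Emcn, Fli1 and Icam2 were at 0 in all 6 libraries. The summed level of the endothelial list was 30.4 to 35.6 FPKM with DMSO and 29.9 to 50.2 FPKM with DHTS. Egfl7 made up most of that sum and was not called (29.2 FPKM with DMSO, 24.4 FPKM with DHTS). Esam rose from 1.10 to 6.93 FPKM (adjusted p = 0.00627) and Eng from 2.98 to 5.53 FPKM (adjusted p = 0.0124). Vwf went from 0.05 to 1.01 FPKM and Erg from 0 to 0.48 FPKM, both too low to be tested. Of 8 epithelial markers 6 reached a mean of 1 FPKM, while Cdh1 and Krt19 stayed below 1 FPKM. The summed level of that list was 208 to 212 FPKM with DMSO and 245 to 257 FPKM with DHTS. Krt18 made up most of that sum in both groups. Members of the epithelial list moved both ways. Krt18 rose from 136 to 197 FPKM and Krt8 from 1.35 to 3.79 FPKM, while Epcam fell from 24.2 to 17.3 FPKM and Elf3 from 34.9 to 19.6 FPKM. Of 6 fibroblast and mural markers 1 reached that mean (Pdgfrb), and the list's sum was 6.23 to 6.76 FPKM with DMSO and 2.52 to 2.86 FPKM with DHTS. None of 4 leukocyte markers found in the table did, their sum reaching at most 0.0723 FPKM, with Itgam and Cd3e at 0 throughout. Whether these shifts bear on the genes described here was not tested, and in bulk RNA fewer cells of a kind cannot be told apart from less RNA per cell.

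Txnrd1 (ENSMUSG00000020250) encodes the cytosolic reductase, a selenoprotein, and lies on the plus strand of mouse chromosome 10 at 82833951 to 82897712 in the mm10 build. Its level was 152, 148 and 148 FPKM in the DMSO libraries and 312, 307 and 311 FPKM in the DHTS libraries. All DHTS libraries were far above all DMSO libraries, and the spread within a group was under 2.6 FPKM (SD, n = 3). The log2 fold change was 1.05 (SE 0.03, 95% interval 0.98 to 1.12, adjusted p = 3.8e-07). Of all genes tested, 5.83% were called higher with a log2 change of at least 1. Between 4894 and 11542 estimated fragments per library lay behind these values.

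Txnrd2 (ENSMUSG00000075704), the mitochondrial reductase gene on chromosome 16 at 18426384 to 18479073, had the lowest level of the 10. It stood at 15.3, 18.8 and 15.5 FPKM with DMSO, against 11.6, 19.6 and 14.04 FPKM under DHTS, so the groups overlapped. Its log2 change of −0.15 did not pass (SE 0.18, adjusted p = 0.515), and the interval of −0.58 to 0.27 spans 0. The authors' second block of values, fragments scaled per library, stood at 192, 202 and 196 with DMSO, against 176, 216 and 210 under DHTS. On that scale the difference was 0.02 on log2(scaled fragments + 1), with an adjusted p of 0.872. One FPKM of Txnrd2 stood for 10.8 to 15.2 scaled fragments depending on the library, a range of 1.41 times, against 1.01 times for Txnrd1.

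Within libraries, Txnrd1 exceeded Txnrd2 by 3.23, 2.91 and 3.17 log2 units in the DMSO libraries and by 4.64, 3.91 and 4.38 in the DHTS libraries. All DHTS libraries lay above all DMSO libraries. The gap was 1.202 log2 units wider with DHTS, and 1.03 on scaled fragments (exact permutation test, two-sided, p = 0.1, the smallest that 3 libraries against 3 allow).

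Txn1 (ENSMUSG00000028367), the cytosolic and nuclear thioredoxin on the minus strand of chromosome 4 at 57943373 to 57956411, was among the most abundant transcripts, above 98.4% of tested genes in DMSO cells. It stood at 471, 445 and 433 FPKM with DMSO, against 478, 486 and 485 FPKM under DHTS. The groups did not overlap, but the highest DMSO library lay close to the lowest DHTS library. The log2 change was 0.10 (SE 0.04, interval 0.02 to 0.19, adjusted p = 0.0481). That call was lost when any library other than DMSO replicate 1 was left out, with adjusted p = 0.119 without DMSO replicate 2, 0.137 without DMSO replicate 3, 0.0890 without DHTS replicate 1, 0.115 without DHTS replicate 2 and 0.106 without DHTS replicate 3. It was also lost with the replicate block (adjusted p = 0.0777).

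Txn2 (ENSMUSG00000005354), the mitochondrial thioredoxin on chromosome 15 at 77915047 to 77929006, stood at 112, 93.0 and 94.2 FPKM with DMSO, against 115, 104 and 98.2 FPKM under DHTS. Each group had 1 higher library and the groups overlapped. The log2 change was 0.09 (SE 0.09, interval −0.12 to 0.29, adjusted p = 0.443). Within libraries Txn1 exceeded Txn2 by 2.17 ± 0.0918 log2 units with DMSO and 2.19 ± 0.127 with DHTS (SD, n = 3; exact permutation test, two-sided, p = 0.8). The gap between reductase and thioredoxin in the cytosol, a ratio chosen after the values were seen, was smaller with DHTS. Txnrd1 lay 1.59 ± 0.0396 log2 units below Txn1 with DMSO and 0.64 ± 0.0212 below it with DHTS (exact permutation test, two-sided, p = 0.1).

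Txnip (ENSMUSG00000038393), on chromosome 3 at 96557957 to 96561883, encodes an arrestin-like protein that binds reduced thioredoxin and restrains glucose uptake. It stood at 44.0, 43.4 and 46.5 FPKM with DMSO, against 35.05, 39.1 and 38.8 FPKM under DHTS. All DHTS libraries were below all DMSO libraries. The log2 change was −0.24 (SE 0.06, interval −0.38 to −0.10, adjusted p = 0.0121). Relative to Txn1 in the same library, Txnip fell by 0.34 log2 units (exact permutation test, two-sided, p = 0.1). Of the exonic bases of Txnip, 606 (19.4%) are shared with the antisense gene Gm15441, which was not analysed here. Whether strand was used in counting is not stated, so the part of each gene in that stretch is uncertain.

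Srxn1 (ENSMUSG00000032802), on chromosome 2 at 152105516 to 152111376, encodes sulfiredoxin, the enzyme that rescues peroxiredoxins whose cysteine has been overoxidised. Its level was 23.8, 27.0 and 26.9 FPKM with DMSO and 44.1, 49.99 and 45.2 FPKM with DHTS. The lowest DHTS library was well above the highest DMSO library. The log2 change was 0.82 (SE 0.07, interval 0.65 to 0.99, adjusted p = 9.9e-05), on 578 to 1216 estimated fragments per library. Against Prdx1, which encodes one of its substrates, the difference within a library shifted by 0.49 log2 units toward Srxn1, and the groups did not overlap (exact permutation test, two-sided, p = 0.1).

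Among the peroxiredoxins, 2 rose and 2 fell. Prdx1 (ENSMUSG00000028691), the abundant cytosolic peroxiredoxin on chromosome 4 at 116685544 to 116700822, stood at 438, 437 and 442 FPKM with DMSO, against 573, 579 and 504 FPKM under DHTS. The DMSO libraries were nearly equal and DHTS replicate 3 was lower than the other two, in scaled fragments as well (6353 against 6840 and 7054). The log2 change was 0.33 (SE 0.05, interval 0.20 to 0.45, adjusted p = 0.00212). Prdx6 (ENSMUSG00000026701), on chromosome 1 at 161240112 to 161251219, encodes a peroxidase that draws on glutathione rather than thioredoxin and also acts on phospholipids. It stood at 200.1, 207 and 188 FPKM with DMSO, against 260.5, 259.6 and 260.1 FPKM under DHTS. The DHTS libraries were almost identical in FPKM and less so in scaled fragments (4343, 4302 and 4211). The log2 change was 0.39 (SE 0.04, interval 0.30 to 0.48, adjusted p = 2.0e-04), and 0.30 on scaled fragments. One FPKM of Prdx6 stood for 17.2 to 18.1 scaled fragments with DMSO, against 16.2 to 16.7 under DHTS.

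Prdx3 (ENSMUSG00000024997), the peroxiredoxin of the mitochondrial matrix, lies on chromosome 19 at 60864051 to 60874556. It stood at 82.7, 77.9 and 75.2 FPKM with DMSO, against 68.9, 66.6 and 60.6 FPKM under DHTS. All DHTS libraries were lower, and the log2 change was −0.26 (SE 0.06, interval −0.41 to −0.12, adjusted p = 0.00966). Prdx5 (ENSMUSG00000024953), found in mitochondria, peroxisomes and cytosol, lies on the same chromosome at 6906697 to 6910106. It stood at 253, 252 and 242 FPKM with DMSO, against 207, 214 and 207 FPKM under DHTS. Here too the groups were apart, and the log2 change was −0.25 (SE 0.03, interval −0.33 to −0.17, adjusted p = 6.6e-04). The exons of Prdx5 share 409 bases (19.1%) with Trmt112 on the opposite strand, which fell as well, from 79.1 ± 7.42 to 67.5 ± 2.44 FPKM (log2 change −0.22, adjusted p = 0.0378), so the part of each gene in the shared stretch is uncertain. The labels do not say that strand was used in counting. Within libraries, Prdx1 exceeded Prdx3 by 2.47 ± 0.0727 log2 units with DMSO and by 3.06 ± 0.0357 with DHTS (SD, n = 3), with no overlap (exact permutation test, two-sided, p = 0.1).

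With Prdx2 and Prdx4, named after their values were seen, the family of 6 peroxiredoxins is complete. Prdx2, a second cytosolic form, fell from 315 ± 5.99 to 278 ± 5.60 FPKM (log2 change −0.18, adjusted p = 0.00224). Prdx4, the form of the secretory pathway, fell from 61.5 ± 3.47 to 43.9 ± 0.605 FPKM (−0.48, adjusted p = 2.6e-04). The summed level of all 6 genes was 1354, 1353 and 1318 FPKM with DMSO and 1437, 1443 and 1347 FPKM with DHTS, and those groups overlapped (exact permutation test, two-sided, p = 0.3). Prdx1 held 32.7% ± 0.663 of the summed FPKM with DMSO and 39.2% ± 1.49 with DHTS, and Prdx6 held 14.8% ± 0.511 and 18.5% ± 0.720. Prdx2 went from 23.5% to 19.8% and Prdx5 from 18.6% to 14.9%. The groups were apart for each of these shares (exact permutation test, two-sided, p = 0.1 each), and shares that add to a whole are not independent of each other.

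**Figure D3:**
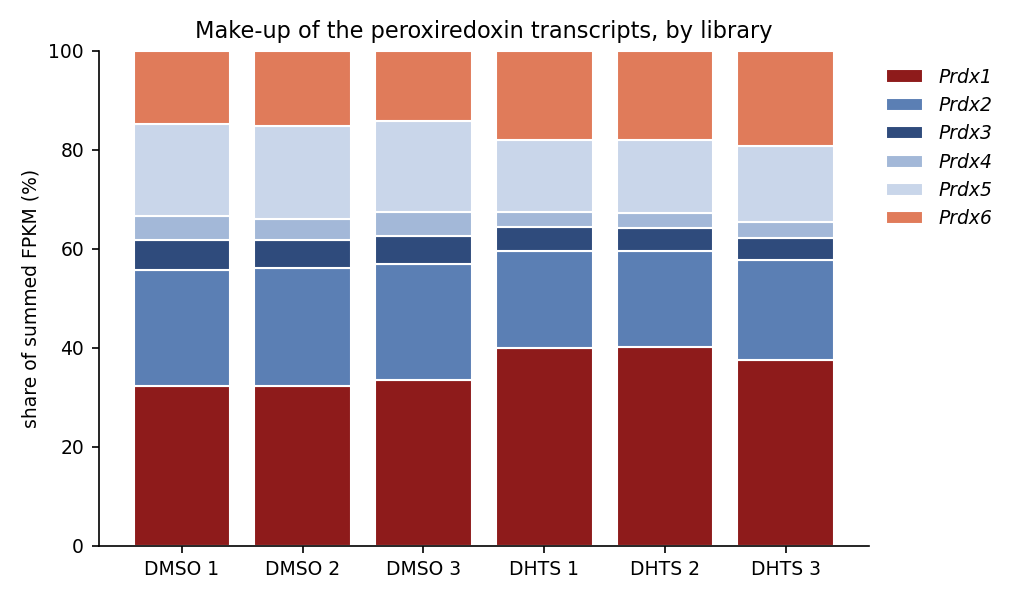
Share of each of the 6 peroxiredoxin genes in their summed FPKM (percent, stacked to the whole) in each library. The shares of Prdx1 (32.3% to 33.5% with DMSO, 37.4% to 40.1% with DHTS) and Prdx6 widen with DHTS, and those of the other 4 narrow.

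By level, Txn1 and Prdx1 led in DMSO cells, and their ranges overlapped there. Prdx5, Prdx6, Txnrd1, Txn2, Prdx3, Txnip, Srxn1 and Txnrd2 followed in this order, each apart from its neighbour in all 3 libraries. With DHTS, Prdx1 came first and Txn1 second, Txnrd1 moved from the fifth to the third place, ahead of Prdx6 and Prdx5, and Srxn1 passed Txnip. FPKM is scaled to transcript length, so these levels can be compared between genes, but only roughly. Scaled fragments per FPKM of the same gene differed between libraries by up to 1.41 times, in Txnrd2. Estimated fragments were within 0.1 of a whole number for these genes in all 6 libraries, except for Txn2 in DMSO replicate 2. Txn1, Prdx1 and Prdx6, which have processed copies in the genome, remain uncertain to that extent, since reads assigned wholly to a copy cannot be seen in these values.

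Promoter sequences from RefSeq on the GRCm38.p6 build, covering 250 bases before to 50 after a start site, were found for 9 of the 10 genes in 11 windows. They are shown because several of the genes that rose are known NRF2 targets, and the core of its binding element, TGACNNNGC, can be searched by letters. On either strand this core was found once each in windows of Txnrd1, Prdx1 and Srxn1, and in none of the windows of Txn1, Txn2, Txnrd2, Txnip, Prdx3 or Prdx5. Of all 32851 windows 12.4% hold it. The Txnrd1 match lies at 92 bases before the second of 3 start sites, the Prdx1 match at 133 bases before the start site, and the Srxn1 match 29 bases into the transcript, counted from the start site as base 1. In the stretches below, on the plus strand and 5′ to 3′, capitals mark the match, which lies on the opposite strand to the gene in each case (TGACAAAGC, TGACTCAGC and TGACCTAGC when read on that strand). They lie at chr10:82859069-82859167, chr4:116685421-116685519 and chr2:152105543-152105569.
Txnrd1: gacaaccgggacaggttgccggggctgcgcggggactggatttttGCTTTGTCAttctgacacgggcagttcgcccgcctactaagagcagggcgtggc
Prdx1: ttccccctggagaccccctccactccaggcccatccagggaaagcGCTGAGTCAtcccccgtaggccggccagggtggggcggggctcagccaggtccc
Srxn1: cagtgggcaGCTAGGTCAgagtgagac
The E-box CACGTG was in none of the 11 windows and in 7.2% of all windows. A match of letters is not a bound site, and these data hold no measure of binding.

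Genes outside the 10 whose values followed Txnrd1 most closely over the 6 libraries were the heme transporter gene Slc48a1, the zinc finger gene Zfp219 and the Notch ligand gene Jag2, with a root mean square difference of 0.02 log2 units each after centring on the DMSO mean. Slc48a1 went from 55.7 ± 0.510 to 117 ± 1.402 FPKM (log2 change 1.06, adjusted p = 6.5e-07). Prdx3 had the lowest log2 change of the 10 in the fit as reported (−0.26, against −0.25 for Prdx5 and −0.24 for Txnip), but Txnip was lower under quantile normalization (−0.30 against −0.27), without DMSO replicate 1 (−0.25 against −0.23) and without DHTS replicate 3 (−0.26 against −0.21). For Prdx3 the closest were C1qbp, a mitochondrial matrix protein gene, 2700094K13Rik, and Tceb1, which encodes elongin C, also at 0.02 each. C1qbp went from 198 ± 9.53 to 165 ± 7.65 FPKM (−0.26, adjusted p = 0.00426). With 2 groups of 3 libraries, this likeness rests mainly on the size of the treatment difference.

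Related genes were taken from 6 lists of 103 genes in all. Of 22 other thioredoxin-fold, glutaredoxin and peroxiredoxin genes, 5 passed upward and 9 downward, and the median log2 change was −0.08. The share called was 63.6%, and for the lists that follow it is likewise to be set beside the 50.1% of all tested genes. Nxn, which encodes nucleoredoxin, rose from 22.2 ± 0.799 to 66.8 ± 1.33 FPKM (log2 change 1.55, adjusted p = 5.6e-07), more than any of the 10. Glrx3, an iron-sulfur handling glutaredoxin gene, rose by 0.78, and Txnrd3, the third reductase gene, fell from 11.01 ± 0.306 to 6.01 ± 0.692 FPKM (−0.78, adjusted p = 3.5e-04). The 3 reductase genes thus gave 1 rise, 1 fall and 1 change that did not pass. Among 14 tested clients and partners of thioredoxin 6 were higher and 3 lower (64.3% called), with the stress kinase gene Map3k6 at 0.99, the sestrin gene Sesn3 at −0.53 and the DNA repair and redox factor gene Apex1 at −0.49. The median of 0.12 turned to −0.04 under quantile normalization.

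The protein of Txnrd1 carries selenocysteine. Of 21 tested genes on a list for selenoproteins and their synthesis 4 passed upward and 12 downward (median −0.25). So 76.2% were called against 50.1% of all genes. That list leaves out Txnrd2, Txnrd3 and Msrb1, which are counted elsewhere here. Of those, Txnrd2 did not pass, Txnrd3 fell by 0.78 and Msrb1 rose by 0.20 (adjusted p = 0.00625). Eefsec, the elongation factor that delivers selenocysteine, rose by 0.63 and Selo by 0.58, and the secreted selenoprotein gene Sepp1 fell by 0.52. The 4 upward calls fell to 2 under median-ratio scaling, with the replicate block, and without DMSO replicate 1, DMSO replicate 2, DHTS replicate 1 or DHTS replicate 2. None of the 21 rose as much as Txnrd1 (highest log2 change 0.63). The peroxidase genes Gpx1 and Gpx4, named after their values were seen, changed by 0.11 (adjusted p = 0.0265) and −0.23 (adjusted p = 0.00411).

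In the parallel glutathione and peroxide defence list 7 of 17 tested genes passed upward and 5 downward (70.6% called), and the median was 0.13. Ccs, which loads copper into superoxide dismutase, rose from 40.5 ± 3.44 to 98.2 ± 7.42 FPKM (1.26, adjusted p = 1.9e-05), and Gclc, which starts glutathione synthesis, rose by 1.2035. Sod2, the mitochondrial superoxide dismutase gene, fell from 41.6 ± 0.617 to 16.5 ± 1.25 FPKM (−1.29, adjusted p = 6.2e-06). Gsr, the glutathione counterpart of Txnrd1 and named after its values were seen, did not pass (82.0 ± 6.98 and 89.6 ± 3.19 FPKM, 0.13, adjusted p = 0.136). The list of NRF2 and its partners, which holds its known targets Hmox1 (1.90) and Nqo1 (1.68), had 5 of 13 genes that passed upward and 3 downward (61.5% called), with a median of −0.09. The downward count was 5 under median-ratio scaling and quantile normalization and 7 on scaled fragments. Nfe2l1, the relative of NRF2, fell by 0.90. Nfe2l2, the gene of NRF2 itself, rose from 63.9 ± 1.13 to 94.2 ± 2.96 FPKM (0.55, adjusted p = 3.2e-05). Keap1 did not pass (0.04, adjusted p = 0.593), and both were named after their values were seen. The median of the list turned to 0.02 without DMSO replicate 3. Of 8 tested arrestin-domain relatives and sugar-sensing regulators of Txnip 2 passed upward and 3 downward (62.5% called), with a median of 0.13, which turned to −0.02 under quantile normalization. No gene of that list passed upward without a filter, under median-ratio scaling or quantile normalization, or without DMSO replicate 3, DHTS replicate 1 or DHTS replicate 3, and 1 did without DMSO replicate 2 or DHTS replicate 2 and with limma without trend and robust. The ubiquitin ligase gene Itch fell by 0.39 and the glucose sensor gene Mlxip by 0.29. Arrdc3 was at 7.37, 4.24 and 4.07 FPKM with DMSO, against 8.01, 7.78 and 8.01 FPKM under DHTS (0.56, adjusted p = 0.0443), a call that was lost when any library other than DMSO replicate 1 was left out (adjusted p up to 0.127). On scaled fragments it was 0.94.

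**Figure D4:**
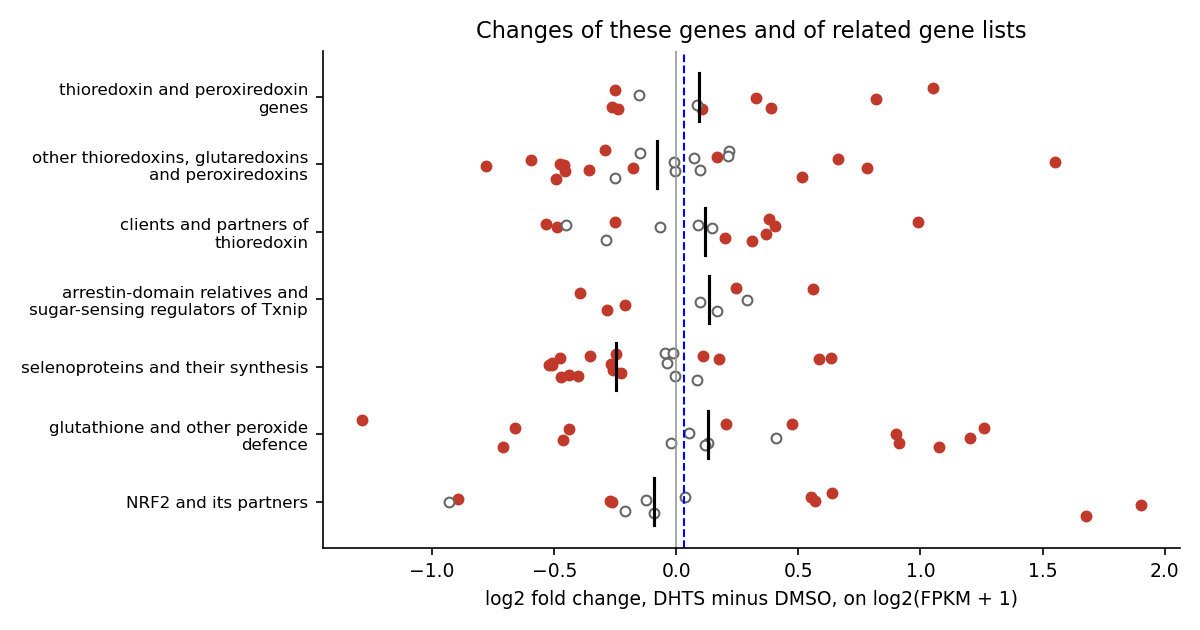
Log2 fold change of each tested gene of the 10 and of 6 related lists (red: adjusted p under 0.05; open: not past the threshold; black bar: list median; dashed line: median of all tested genes, 0.03). The selenoprotein list lies mostly below 0, at a median of −0.25, and Txnrd1, in the top row, at 1.05.

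**Figure D5:**
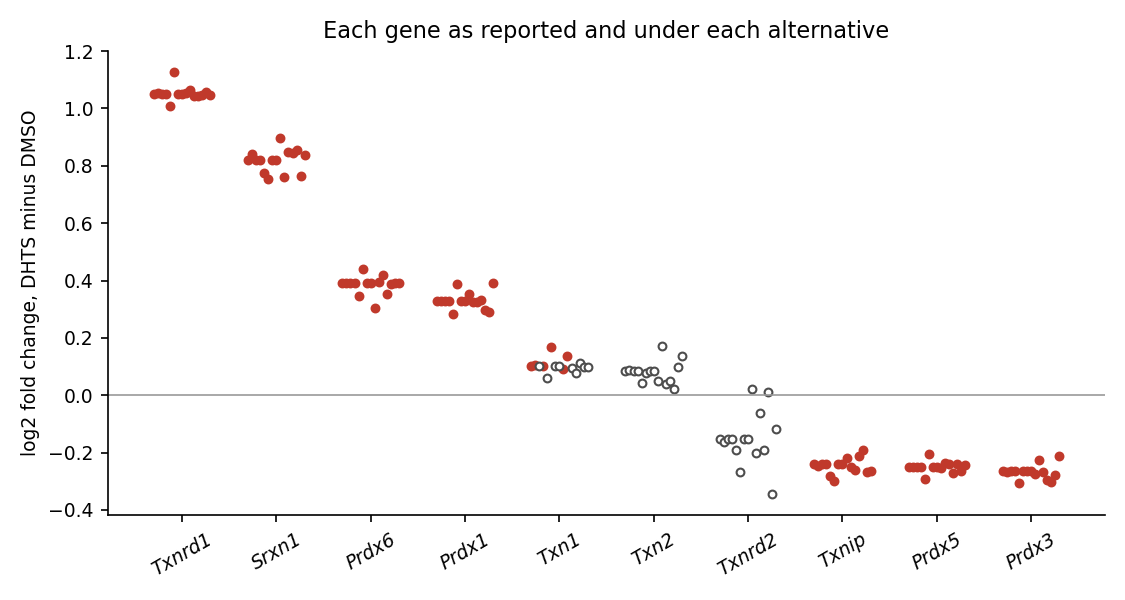
Log2 fold change of each of the 10 genes as reported and under 14 alternatives, as points side by side (filled: adjusted p under 0.05; open: not). For 7 genes every point is filled and on one side of 0, and Txn1 is filled in 6 of 15 points.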

How the data were processed

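RNA of 6 libraries was measured by sequencing. The submitters' processing notes name Cuffdiff 2.2.1, Cufflinks, HISAT2 2.0.4, fastp 0.20.0 and the mm10 build. What each tool did, which annotation served and whether strand was used were not given in the sources used here. FPKM values as deposited are the authors' fragments per transcript length and library size. A second deposited block, headed as counts, holds a signal: estimated fragments divided by 1 factor per library. Factors were estimated here from the steps of the values, and 92.7% to 93.0% of values above 0 came out within 0.1 of a whole number, so no count model was fitted.

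Genes with a mean of at least 1 FPKM were tested on log2(FPKM + 1) in limma 3.58.1 (R 4.3.3), with trend and robust options, treatment as the only term, two-sided tests and Benjamini-Hochberg adjustment over 11416 genes. All adjusted p-values are from limma. Fold changes on this scale understate changes of low genes. Intervals are 95%, and depth in fragments limits precision for counting error only. Differences within a library used exact permutation tests (scipy 1.17.1).

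The 10 genes, the 6 lists and the marker lists were chosen with earlier results of these data known. Besides the 10, the text names up to 3 genes of each list, those that passed with the largest change, the 2 with the highest mean FPKM where none passed, and the 3 closest in pattern to the genes that rose and fell most. Gene positions are from GENCODE M21 (mm10), counted from 1. The 14 alternatives left out each library, dropped the filter or raised it to 5 FPKM, lowered the pseudocount to 0.1, rescaled by quantiles or by median ratios, added a replicate block, dropped trend and robust, or used scaled fragments (mean of 10 or more). 1 line of the deposited table was empty.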

Additional observations from a re-analysis of the deposited data

How the results depend on the processing

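Txnrd1, Srxn1, Prdx1, Prdx6, Prdx3, Prdx5 and Txnip kept their direction and stayed past the threshold in all 14 alternatives, with log2 changes of 1.01 to 1.13 for Txnrd1, 0.75 to 0.90 for Srxn1, 0.28 to 0.39 for Prdx1, 0.30 to 0.44 for Prdx6, −0.31 to −0.21 for Prdx3, −0.29 to −0.20 for Prdx5 and −0.30 to −0.19 for Txnip. Txn1 passed in 5 of 14, with adjusted p from 0.0039 to 0.206, and was lost without a filter (0.0661), with median-ratio scaling (0.206), with limma without trend and robust (0.139), with the replicate block (0.0777) and when most libraries were left out. The number of genes higher among the 10 was therefore 4 or 5, and the number lower was 3 throughout. Txnrd2 changed sign on scaled fragments (0.0209) and without DHTS replicate 1 (0.0102), and ranged from −0.3452 to 0.0102 over left-out libraries. The Txn1 to Txn2 difference changed sign as libraries were left out, from −0.0363 to 0.0874. The median log2 change of the 10 genes ranged from 0.0626 to 0.1539 when a library was left out. The cause of these shifts was not tested. Same-numbered libraries deviated from their group means with correlations of −0.05 to 0.06, and differently numbered ones with −0.08 to 0.075. The numbers were therefore not taken to pair the samples. With the replicate block, 3053 genes were higher and 2384 lower, against 3218 and 2502 without it. Txnrd2 had the fewest fragments of the 10 genes, 174 to 228 per library, and so the largest counting error. Its scaled fragments per FPKM also varied most between libraries, from 10.8 to 15.2.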
